A study of Homo sapiens with 6 samples.

Results

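The mitochondrial ribosomal proteins were examined in MV4-11 cells treated with the WNK kinase inhibitor WNK463. The members were all genes of the count table whose symbol begins with MRPL or MRPS followed by a number, which gave 78 of 20348 genes. The letter L or S of the symbol assigned 49 of them to the large subunit and 29 to the small subunit. All 78 passed the filter on low counts and were among the 11973 genes tested, so no member was left out.

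Mitochondria carry their own ribosome, which is built from RNAs made from mitochondrial DNA and from proteins that the nucleus encodes, the cytosol synthesizes and the organelle imports. This ribosome translates only the mRNAs of the mitochondrial genome, whose products are core subunits of the respiratory chain and the ATP synthase. One set of its proteins descends from bacterial ribosomal proteins, and another set is found in mitochondrial ribosomes but not in bacteria. In acute myeloid leukemia, mitochondrial translation is known as a process on which the cells' respiration depends.

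MV4-11 is an established human acute myeloid leukemia line with a *KMT2A* fusion and an internal tandem duplication of *FLT3*. The Control group held 3 samples of untreated cells (0 μM) and the WNK463 group held 3 samples of cells given 1 μM WNK463, and both were collected at 48 h. The study sequenced RNA of these cells to look for molecular changes behind the effect of WNK463 on leukemia cells. All samples come from 1 cell line, and the labels do not say whether the 3 samples of a group were separate cultures, so the p-values measure only the spread between these samples, which may be technical. Whether a lower value in bulk RNA reflects fewer cells that make an mRNA or less of it per cell cannot be told apart.

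The libraries held between 14915745 and 17411780 estimated counts. Levels below are counts per 1000000 counts on library sizes scaled with edgeR's TMM factors (CPM), which lay between 0.944 and 0.952 in Control and between 1.05 and 1.06 with WNK463. A gene was called where edgeR's quasi-likelihood test gave an adjusted p under 0.05, with no limit on the size of the change. The line's markers *HOXA9*, *MEIS1*, *FLT3*, *CD33*, *SPI1*, *PTPRC*, *CD4* and *LYZ* were all expressed, and 7 of these 8 were called. *LYZ*, *FLT3* and *CD33* fell, *PTPRC*, *HOXA9*, *CD4* and *MEIS1* rose, and *SPI1* did not pass. The log2 fold change of *LYZ* was -2.22, and *PTPRC* stood at 91.6 ± 9.60 CPM (SD, n = 3) in Control and 210.4 ± 4.90 CPM with WNK463. With total counts *FLT3* no longer passed and *SPI1* was called higher. The summed level of the 8 was 2567 to 2673 CPM in Control and 1843 to 1871 CPM with WNK463, and their part in the members' changes was not tested. The summed level of 12 markers of other cell types was 11.6 ± 0.11 CPM (SD, n = 3) in Control and 8.77 ± 0.83 CPM with WNK463. The markers *EPCAM*, *MS4A1*, *CD3D* and *HBB* among them were at 0 in every sample. Of the 12, 2 passed the filter on low counts. Of these, 1 was called lower, at -0.685 on the log2 scale, and 1 higher, at 1.119.

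The mRNAs of both subunits were lower with WNK463 as a group, while individual members ran from a fall of more than 1 log2 unit to a rise of 0.53. Of the 78 members, 51 fell, 6 rose and 21 did not pass the test, against 35.3% of all genes tested that fell and 35.5% that rose. The large subunit had 32 members that fell and 5 that rose, and the small subunit had 19 that fell and 1 that rose. These are 65.3% and 65.5% of the 2 subunits' members. The median log2 fold change (WNK463 minus Control) was -0.30 over the large subunit and -0.32 over the small subunit, beside 0.02 over all genes tested.

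Scaling by total counts in place of the TMM factors moved the median of all genes up by 0.15 on the log2 scale, and the members moved with it. Under that scaling 35 members fell and 16 rose, against 26.1% and 46.1% of all genes tested, and the medians were -0.15 for the large and -0.17 for the small subunit. Taken relative to the median of all genes, the members' median was -0.32 under both scalings. This had to follow, since a change of scaling shifts all genes nearly alike. With limma on log2(TPM + 1) of the deposited TPM the members' median relative to all genes was -0.26. No member was called in opposite directions by the 2 scalings. The 35 members that fell and the 6 that rose did so under both, 16 fell only with TMM factors (*MRPL2*, *MRPL11*, *MRPL13*, *MRPL18*, *MRPL27*, *MRPL30*, *MRPL39*, *MRPL41*, *MRPL46*, *MRPL54*, *MRPS9*, *MRPS10*, *MRPS15*, *MRPS22*, *MRPS26* and *MRPS31*) and 10 rose only with total counts (*MRPL19*, *MRPL36*, *MRPL42*, *MRPL47*, *MRPS6*, *MRPS21*, *MRPS23*, *MRPS24*, *MRPS33* and *MRPS35*). The changes given below are those with TMM factors.

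**Figure D1:**
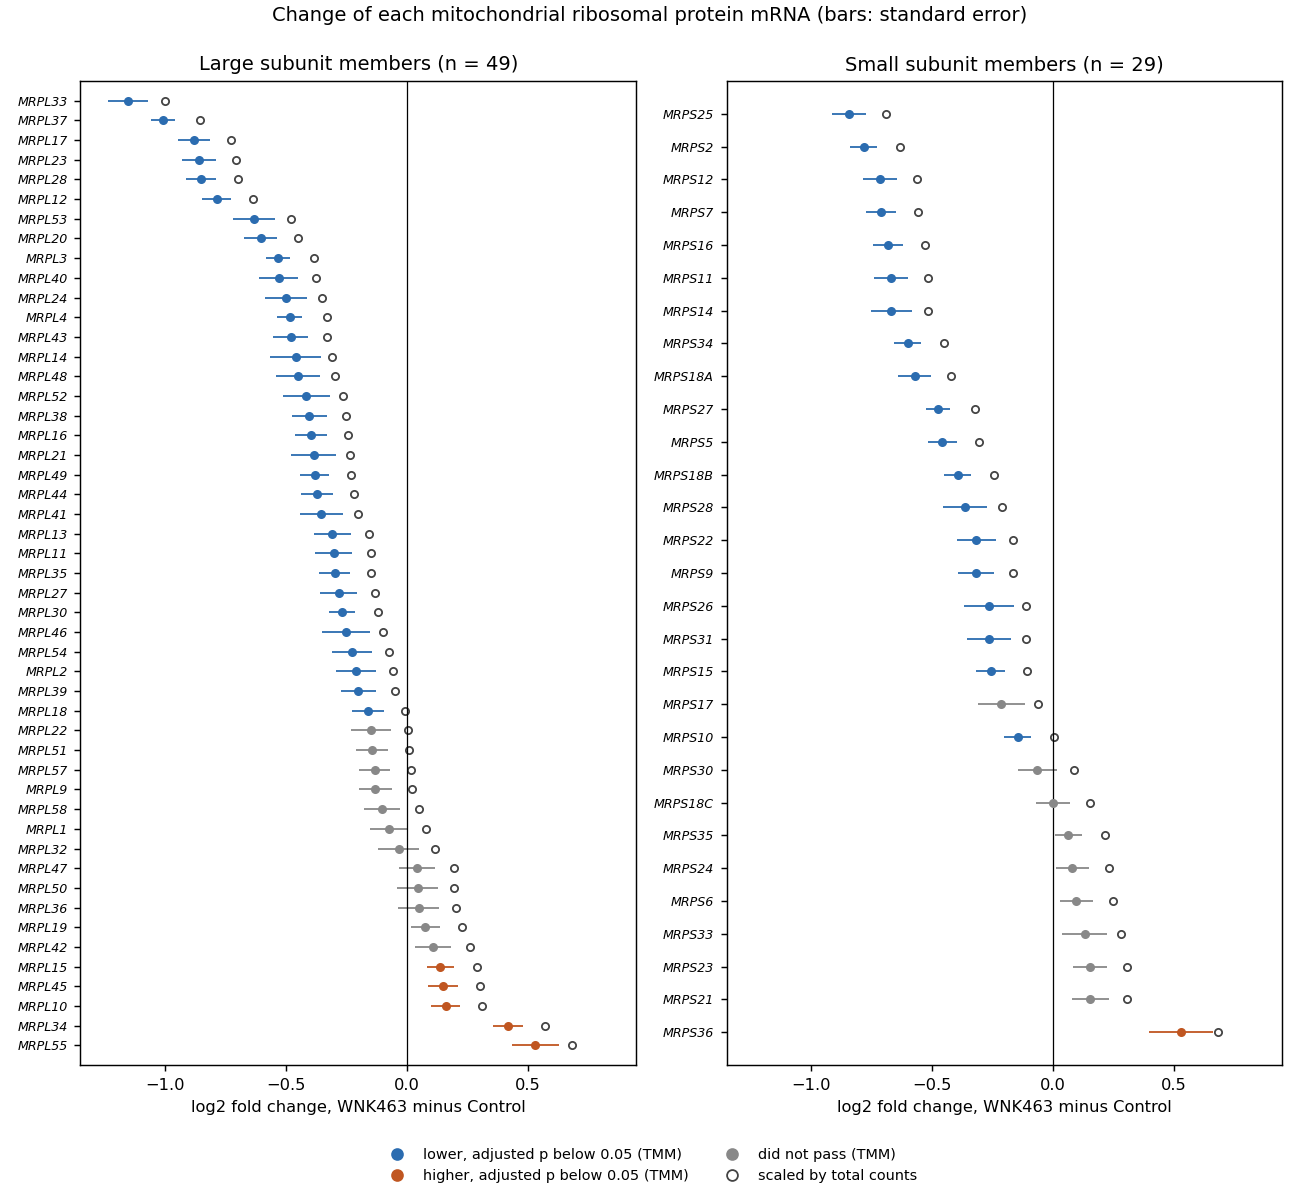
Log2 fold change (WNK463 minus Control) of each of the 78 members, with the 49 large subunit members on the left and the 29 small subunit members on the right. Filled points are edgeR estimates with TMM factors, bars are standard errors and colours give the call; open circles are the same members scaled by total counts, which lie about 0.15 higher, so that 51 filled points are called lower but 35 members are called lower by total counts.

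Separation between the samples gave a like picture. All 3 WNK463 samples lay below all 3 Control samples for 53 members, 34 of the large and 19 of the small subunit, against 36.4% of all genes tested, and they lay above for 7 members, 4 of the large and 3 of the small, against 37.1%. With total counts these numbers were 37 and 15. The shares of all genes tested just given hold for TMM factors only, and none is given here for total counts. The smallest p that permuting 3 against 3 samples can reach is 0.10 (exact, two-sided), so the calls rest on the edgeR fit.

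The summed level over the 49 large subunit members was 2833, 2792 and 2837 CPM in the Control samples and 2203, 2267 and 2291 CPM in the WNK463 samples. The small subunit summed to 1650, 1650 and 1658 CPM in Control and to 1260, 1314 and 1321 CPM with WNK463. For both subunits the WNK463 samples lay below every Control sample, at 79.9% and 78.6% of the Control mean. The ratio of the large to the small sum was 1.72, 1.69 and 1.71 in Control and 1.75, 1.73 and 1.74 with WNK463. On the deposited TPM the ratio was 2.20 ± 0.044 (SD, n = 3) in Control and 2.16 ± 0.028 with WNK463, the other way round and with overlap of the groups. On total counts the sums stood at 88.8% and 87.3% of Control, and the sums of the deposited TPM at 90.5% and 92.0%, lower in every WNK463 sample on each of these scales.

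**Figure D2:**
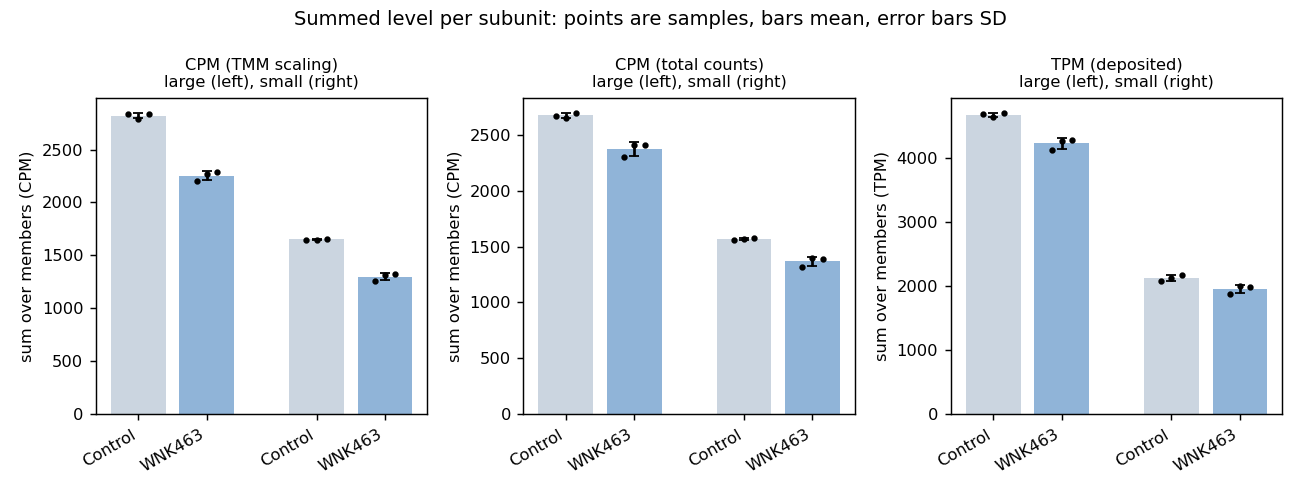
Summed level of the large and the small subunit members per sample, on CPM with TMM factors (left), CPM of total counts (middle) and deposited TPM (right). Points are samples, bars are means of 3 and error bars SD; on each scale the 3 WNK463 samples lie below the 3 Control samples, at 79.9% of Control for the large subunit with TMM factors, 88.8% with total counts and 90.5% in TPM.

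The lowest members of the large subunit were *MRPL33*, *MRPL37*, *MRPL17*, *MRPL23* and *MRPL28*. *MRPL33* is the counterpart of the small bacterial protein L33 and is encoded on chromosome 2 (GENCODE 29, GRCh38, chr2:27771717-27988087, plus strand). It measured 33.4, 32.9 and 33.2 CPM in the Control samples and 14.0, 15.6 and 15.1 CPM in the WNK463 samples. No WNK463 sample came near the Control samples, and *MRPL33* fell by 1.15 on the log2 scale (SE 0.08, adjusted p = 7.7e-10). The annotated *MRPL33* gene overlaps the genes *BABAM2* and *RBKS*. In GENCODE 38 of the 78 members overlap another protein-coding gene. Of the large subunit members with values given below, these include *MRPL11*, *MRPL12*, *MRPL28*, *MRPL30*, *MRPL34*, *MRPL37*, *MRPL40*, *MRPL43*, *MRPL47* and *MRPL53*. Of the small subunit members they include *MRPS2*, *MRPS5*, *MRPS6*, *MRPS7*, *MRPS11*, *MRPS12*, *MRPS16*, *MRPS17*, *MRPS24*, *MRPS25*, *MRPS27*, *MRPS28* and all 3 MRPS18 genes. The strand setting of the counting was not given in the sources used here, so reads of overlapping genes cannot be told apart there.

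*MRPL37*, a protein of the mitochondrial ribosome without a bacterial counterpart (chr1:54184041-54225464, plus strand), stood at 172, 163 and 163 CPM in the Control samples and 80.6, 82.4 and 84.7 CPM in the WNK463 samples. It fell by 1.01 on the log2 scale (SE 0.05, adjusted p = 9.5e-12). The 3 Control samples were nearly alike, and every WNK463 sample lay far below them. *MRPL37* and *MRPL33* were the only members past a 2-fold fall, against 5.55% of all genes tested, and *MRPL37* kept a total-count estimate of -0.86 and *MRPL33* one of -1.001. The span of *MRPL37* overlaps *CYB5RL* and *SSBP3*.

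*MRPL17*, the counterpart of bacterial L17 (chr11:6680782-6683401, minus strand), gave 69.1, 65.9 and 65.9 CPM in the Control samples and 34.3, 35.4 and 39.6 CPM in the WNK463 samples. It fell by 0.88 on the log2 scale (SE 0.07, adjusted p = 2.0e-09), with no overlap between the groups. *MRPL28*, the counterpart of bacterial L28, gave 85.0, 78.1 and 83.2 CPM in the Control samples and 42.5, 47.0 and 47.2 CPM in the WNK463 samples. It fell by 0.85 on the log2 scale (SE 0.06, adjusted p = 1.3e-09), and its highest WNK463 sample lay well under its lowest Control sample.

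The promoters of *MRPL33* and *MRPL17* are shown because these members fell furthest among those with a match to a motif of the nuclear factors that are known to drive genes of mitochondrial proteins. Beside them stands the promoter of *MRPS18C*, which carries such a match and whose mRNA did not pass edgeR's test. On the deposited TPM limma called *MRPS18C* higher. The motifs searched on both strands of the RefSeq promoter windows (GRCh38.p14, 250 bases before and 50 after the start) were the NRF1 motif GCATGCGC, the ETS motif CCGGAAG that GABP binds, and the YY1 motif AAGATGGCG. Matches are in capitals, and only bases upstream of the start are printed, without longer stretches that annotated exons cover (2 such bases remain at the end for *MRPL33*). The *MRPL33* stretch is chr2:27771469-27771718 on the plus strand, the *MRPL17* stretch is chr11:6683402-6683590 on the minus strand, and the *MRPS18C* stretch is chr4:83455857-83455931 on the plus strand.
MRPL33: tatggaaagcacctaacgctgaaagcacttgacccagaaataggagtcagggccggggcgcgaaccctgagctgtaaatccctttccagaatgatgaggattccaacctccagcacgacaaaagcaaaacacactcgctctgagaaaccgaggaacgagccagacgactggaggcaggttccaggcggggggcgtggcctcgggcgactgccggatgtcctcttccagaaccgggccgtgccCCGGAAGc
MRPL17: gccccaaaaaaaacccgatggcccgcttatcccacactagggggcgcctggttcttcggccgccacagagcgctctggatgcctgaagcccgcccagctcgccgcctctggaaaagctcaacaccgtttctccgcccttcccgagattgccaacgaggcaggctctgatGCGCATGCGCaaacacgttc
MRPS18C: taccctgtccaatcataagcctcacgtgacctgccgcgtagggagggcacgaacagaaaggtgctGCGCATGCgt
The *MRPL33* stretch ends in an ETS match, the *MRPL17* stretch holds the NRF1 motif on both strands at 1 place, and the *MRPS18C* stretch holds the NRF1 motif at 1 place, while its ETS match lies in the neighbouring *HELQ* exon and is not printed.

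A promoter window was found for 69 of the 78 members. The ETS motif matched in 30 of these 69 (43.5%), against 23.7% of the tested genes with a window and 12.2% of all genes with one. The YY1 motif matched in 13 members (18.8%), against 4.92% and 2.14%, and the NRF1 motif in 6 members (8.70%), against 6.71% and 3.68%. No matches of different motifs overlapped in a member's window. Of the cytosolic ribosomal protein genes with a window, 35.3% held the ETS motif.

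Members with and without a match both held many that fell. The counts below stand beside 65.4% of all 78 members that fell and 7.69% that rose. Of all genes tested 35.3% fell and 35.5% rose. Of the 40 members with at least 1 of the motifs, 26 fell and 0 rose by edgeR's test, with a median log2 fold change of -0.27, and of the 29 without, 19 fell and 3 rose, with a median of -0.35. The 30 members with the ETS motif had 23 that fell, 0 that rose and a median of -0.36, and the 39 without it had 22 that fell, 3 that rose and a median of -0.26. For the YY1 motif the medians stood the other way round. The 13 members with it had 6 that fell, 0 that rose and a median of -0.15, and the 56 without it had 39 that fell, 3 that rose and a median of -0.34. The 6 members with the NRF1 motif had 3 that fell, 0 that rose and a median of -0.27, and the 63 without it had 42 that fell, 3 that rose and a median of -0.30. A match only says that these letters stand in the window, and the difference between these groups of members was not tested.

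Proteins around the exit of the peptide tunnel, where the new chain leaves the large subunit at the inner membrane, moved unevenly. *MRPL23*, which lies at the tunnel exit, gave 64.7, 56.2 and 56.5 CPM in the Control samples and 31.2, 32.7 and 33.9 CPM in the WNK463 samples. It fell by 0.86 on the log2 scale (SE 0.07, adjusted p = 7.1e-09), with a clear gap between the groups. *MRPL24* changed by -0.50 (SE 0.09, adjusted p = 5.2e-05) and *MRPL44*, a protein with a ribonuclease III fold, by -0.37 (SE 0.07, adjusted p = 6.2e-05). *MRPL45*, which anchors the ribosome to the inner membrane, went the other way. It had 70.8, 67.2 and 72.9 CPM in the Control samples and 80.1, 81.7 and 72.0 CPM in the WNK463 samples, and it rose by 0.15 on the log2 scale (SE 0.06, adjusted p = 0.038), although 1 WNK463 sample lay within the range of the Control samples. This call was lost without Control 2, WNK463 1 or WNK463 2, with an adjusted p from 0.13 to 0.20. *MRPL22* and *MRPL47*, at -0.15 and 0.04, did not pass the test.

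The stalk recruits translation factors to the large subunit, and its members also differed. *MRPL12*, the stalk protein proper, which is also known to bind the mitochondrial RNA polymerase, gave 122, 112 and 108 CPM in the Control samples and 64.6, 64.1 and 69.8 CPM in the WNK463 samples. It fell by 0.79 on the log2 scale (SE 0.06, adjusted p = 2.4e-09). *MRPL10*, which anchors *MRPL12* to the ribosome, gave 56.4, 56.5 and 59.6 CPM in the Control samples and 64.9, 61.4 and 66.7 CPM in the WNK463 samples. It rose by 0.16 on the log2 scale (SE 0.06, adjusted p = 0.022), so the anchor and the protein it holds stood on opposite sides of 0, with no overlap between the groups for either and under both scalings. *MRPL11*, at the stalk base, changed by -0.30 (SE 0.08, adjusted p = 0.0019) and *MRPL1*, of the separate L1 stalk, by -0.07, which did not pass. The *MRPL10* call was lost without Control 1, Control 2, WNK463 1 or WNK463 3, with an adjusted p from 0.051 to 0.10.

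The large subunit members that rose were *MRPL55*, *MRPL34*, *MRPL10*, *MRPL45* and *MRPL15*. *MRPL55*, which has no bacterial counterpart, measured 18.6, 16.3 and 17.4 CPM in the Control samples and 23.0, 24.1 and 28.7 CPM in the WNK463 samples. It rose by 0.53 on the log2 scale (SE 0.10, adjusted p = 1.0e-04). *MRPL34*, the counterpart of bacterial L34, measured 39.9, 42.2 and 42.6 CPM in the Control samples and 54.5, 54.6 and 58.0 CPM in the WNK463 samples, and it rose by 0.42 on the log2 scale (SE 0.06, adjusted p = 1.1e-05). For both genes every WNK463 sample lay above every Control sample. *MRPL34* shares its locus with *ABHD8*, from whose reads it cannot be told apart without strand.

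*MRPL15* moved least among them, with 88.4, 90.7 and 91.1 CPM in the Control samples and 93.4, 105 and 99.1 CPM in the WNK463 samples, and it rose by 0.14 on the log2 scale (SE 0.06, adjusted p = 0.033). Its groups did not overlap, but the call was lost in every fit that left out 1 sample except the one without WNK463 1, with an adjusted p from 0.065 to 0.17. *MRPL55* and *MRPL34* kept theirs in all of these fits.

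Other large subunit proteins that fell by at least 0.50 on the log2 scale were *MRPL53* at -0.63 (SE 0.09, adjusted p = 3.5e-06), *MRPL20* at -0.60 (SE 0.07, adjusted p = 3.9e-07), *MRPL3* at -0.53 (SE 0.05, adjusted p = 3.1e-08), *MRPL40* at -0.53 (SE 0.08, adjusted p = 1.3e-05) and *MRPL24*. *MRPL3* and *MRPL20* descend from bacterial proteins, and *MRPL40* and *MRPL53* do not. *MRPL58*, a peptidyl-tRNA hydrolase that became a fixed part of the large subunit, did not pass at -0.10, although its 3 WNK463 samples lay below its 3 Control samples. *MRPL4*, the counterpart of bacterial L4, had the highest level per length of all members, 275 ± 4.52 TPM (SD, n = 3) in Control, and changed by -0.48 (SE 0.05, adjusted p = 1.9e-07). *MRPL50* had the lowest level, 14.9 TPM, and at 0.05 did not pass. The remaining large subunit members that fell ranged from -0.48 for *MRPL43* to -0.16 for *MRPL18*, and the 12 that did not pass from -0.15 for *MRPL22* to 0.11 for *MRPL42*.

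**Figure D3:**
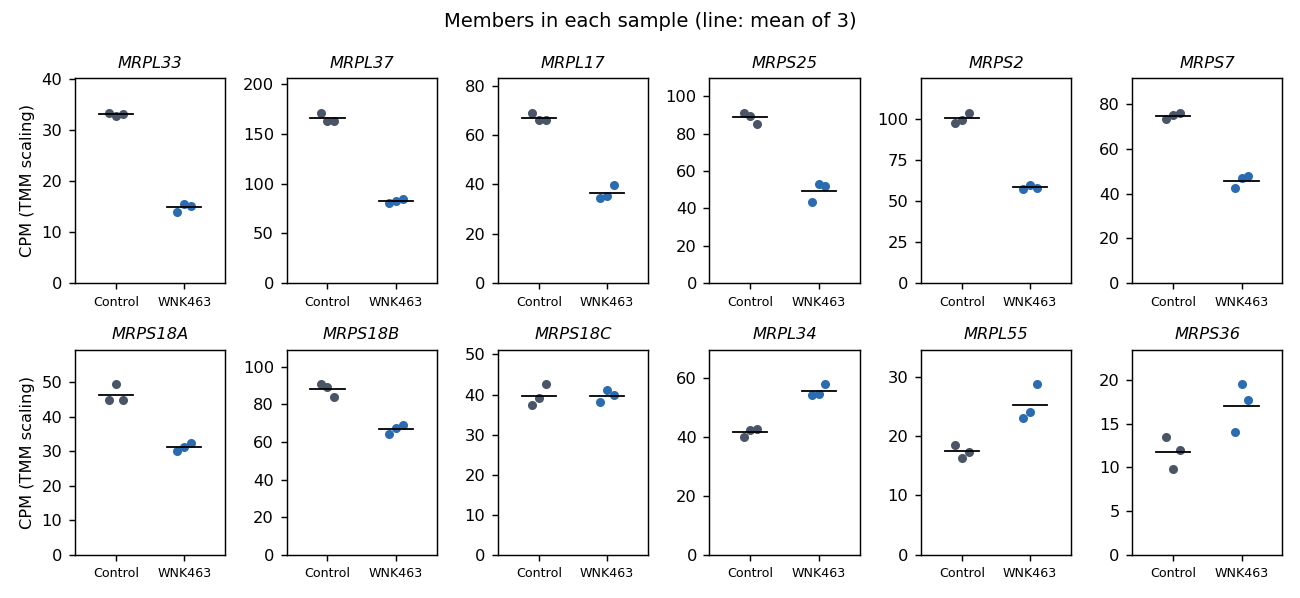
Level (CPM with TMM factors, axes from 0) of 12 members in each sample, with a line at the mean of 3. The 3 WNK463 samples lie below the Control samples for *MRPL33*, *MRPL37*, *MRPL17*, *MRPS25*, *MRPS2*, *MRPS7*, *MRPS18A* and *MRPS18B*, overlap them for *MRPS18C*, and lie above them for *MRPL34*, *MRPL55* and *MRPS36*, in the same directions under scaling by total counts.

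In the small subunit, the proteins along the path of the mRNA included several of the lowest members. *MRPS2* gave 97.4, 99.3 and 104 CPM in the Control samples and 57.2, 59.5 and 57.8 CPM in the WNK463 samples and fell by 0.78 on the log2 scale (SE 0.05, adjusted p = 6.5e-10). *MRPS7*, in the head of the subunit, gave 73.5, 75.2 and 76.3 CPM in the Control samples and 42.4, 47.2 and 48.1 CPM in the WNK463 samples and fell by 0.71 on the log2 scale (SE 0.06, adjusted p = 1.4e-08). *MRPS12*, which lines the decoding centre, gave 44.6, 44.2 and 42.0 CPM in the Control samples and 26.9, 26.2 and 26.6 CPM in the WNK463 samples and fell by 0.72 on the log2 scale (SE 0.07, adjusted p = 4.5e-08). In each of the 3 the WNK463 samples lay far below the Control samples. *MRPS5*, at the mRNA entry, changed by -0.46 (SE 0.06, adjusted p = 2.2e-06), and *MRPS24*, the counterpart of bacterial S3 at the same channel, did not pass at 0.08. The list of these 5 thus held 4 that fell and a median of -0.71, under TMM factors, while *MRPS24* was among the members called higher with total counts.

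The lowest small subunit member was *MRPS25*, which is specific to mitochondria and gave 91.3, 89.6 and 85.2 CPM in the Control samples and 43.2, 52.9 and 52.2 CPM in the WNK463 samples. It fell by 0.84 on the log2 scale (SE 0.07, adjusted p = 7.0e-09), with a gap between the groups. *MRPS16*, the counterpart of bacterial S16, gave 103, 97.1 and 90.9 CPM in the Control samples and 57.0, 60.8 and 63.8 CPM in the WNK463 samples. It fell by 0.68 on the log2 scale (SE 0.06, adjusted p = 2.4e-08), and its groups did not overlap either. *MRPS34*, specific to mitochondria and at 179 TPM the small subunit member with the highest level per length, changed by -0.60 (SE 0.05, adjusted p = 2.1e-08), and *MRPS27*, a pentatricopeptide repeat protein, by -0.47 (SE 0.05, adjusted p = 1.4e-07). The remaining small subunit members that fell ranged from -0.67 for *MRPS11* to -0.15 for *MRPS10*, and the 9 that did not pass from -0.21 for *MRPS17* to 0.16 for *MRPS21*.

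The 3 mitochondrial relatives of bacterial S18 had different calls. *MRPS18A*, which solved structures place in the large subunit despite its symbol, gave 44.9, 49.5 and 45.0 CPM in the Control samples and 30.1, 31.3 and 32.3 CPM in the WNK463 samples and fell by 0.57 on the log2 scale (SE 0.07, adjusted p = 9.4e-07). *MRPS18B* gave 90.7, 89.5 and 84.0 CPM in the Control samples and 64.3, 67.6 and 69.3 CPM in the WNK463 samples and fell by 0.39 on the log2 scale (SE 0.06, adjusted p = 7.0e-06). *MRPS18C* gave 37.3, 39.2 and 42.6 CPM in the Control samples and 38.2, 41.0 and 39.9 CPM in the WNK463 samples, and its log2 fold change was 0.00 (SE 0.07), which did not pass. For the first 2 genes the groups were apart, and for *MRPS18C* they overlapped. The differences between the 3 changes were not tested.

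The only small subunit member called higher was *MRPS36*, which despite its symbol is known as a component of the 2-oxoglutarate dehydrogenase complex and not of the ribosome. It had the lowest level of the small subunit members, with 13.5, 9.88 and 12.01 CPM in the Control samples and 14.1, 19.5 and 17.7 CPM in the WNK463 samples. It rose by 0.53 on the log2 scale (SE 0.13, adjusted p = 0.0016), and the groups did not overlap. With *MRPS36* set aside and *MRPS18A* and *MRPS30* moved to the large subunit, as structures place them, the small subunit held 26 members of which 18 fell and 0 rose by edgeR's test, and the large subunit held 51 members of which 33 fell and 5 rose. *MRPS30* itself did not pass at -0.06.

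The next highest small subunit members did not pass. *MRPS21*, *MRPS23*, *MRPS33* and *MRPS6* had log2 fold changes of 0.16, 0.15, 0.13 and 0.10. For *MRPS21* all 3 WNK463 samples lay above the Control samples, at 29.9, 33.5 and 31.4 CPM against 29.5, 28.4 and 27.3 CPM, by less than the test required. *MRPS17* did not pass either, at -0.21. *MRPS21* has 8 pseudogenes with its name in GENCODE, *MRPS36* has 5 and *MRPS17* has 4, and 34 members have at least 1, so reads of near-identical copies may be split or shared there.

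Across the 78 members, the log2 fold change had a Spearman rho of -0.17 with the mean TPM and of 0.02 with the effective length, given as a description since the genes share the same libraries.

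The ribosome's proteins with other symbols moved the same way as the members. *DAP3*, a GTP-binding protein of the small subunit, changed by -0.44 (SE 0.05, adjusted p = 5.5e-07), *PTCD3*, a pentatricopeptide repeat protein, by -0.60 (SE 0.06, adjusted p = 2.3e-08), and *GADD45GIP1*, a large subunit protein, by -0.69 (SE 0.07, adjusted p = 8.3e-08). *AURKAIP1* changed by -0.32 (SE 0.06, adjusted p = 1.7e-04) and *CHCHD1* by -0.33 (SE 0.11, adjusted p = 0.011). All 5 fell with TMM factors, against 35.3% of all genes tested, and 4 of them, without *CHCHD1*, fell with total counts, against 26.1%. With limma on the deposited TPM (pseudocount 1) 2 of the 5 fell and 0 rose, against 23.3% and 43.7% of all genes tested. *PTCD3* had 63.8, 63.9 and 71.5 TPM in the Control samples and 60.9, 64.7 and 82.2 TPM in the WNK463 samples, which overlapped.

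Factors that assemble the ribosome and modify its RNA were largely lower too. Of 28 such genes 20 fell and 3 rose, with a median of -0.32, and with total counts 14 fell and 4 rose. With TMM factors these counts stand beside 35.3% of all genes tested that fell and 35.5% that rose. With total counts they stand beside 26.1% and 46.1%. *RPUSD3*, a pseudouridine synthase, gave 47.9, 47.8 and 47.1 CPM in the Control samples and 24.4, 23.2 and 23.6 CPM in the WNK463 samples and fell by 1.00 on the log2 scale (SE 0.07, adjusted p = 4.6e-10). *MTG1*, a GTPase of large subunit assembly, changed by -0.80 (SE 0.11, adjusted p = 5.7e-06). *MTERF4* and *NOA1* were the highest, at 0.21 (SE 0.07, adjusted p = 0.016) and 0.19 (SE 0.07, adjusted p = 0.017).

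Among 16 factors of mitochondrial translation 10 fell and 2 rose, with a median of -0.39, and with total counts 9 fell and 5 rose. The shares were 62.5% and 12.5% with TMM factors, beside 35.3% and 35.5% of all genes tested. They were 56.2% and 31.2% with total counts, beside 26.1% and 46.1%. *MTRFR*, a rescue factor for stalled ribosomes, changed by -0.73 (SE 0.10, adjusted p = 3.4e-06) and *GUF1*, a GTPase related to bacterial LepA, by -0.57 (SE 0.06, adjusted p = 8.3e-08). *MTRF1*, of the release factor family, and *MRRF*, which recycles ribosomes, rose, at 0.59 (SE 0.14, adjusted p = 0.0014) and 0.29 (SE 0.06, adjusted p = 2.1e-04).

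The mRNAs that this ribosome translates are the 13 messages of mitochondrial DNA. With TMM factors 11 of them fell and 0 rose by edgeR's test, with a median of -0.21, and with total counts 4 fell and 0 rose, with a median of -0.06. The shares that fell were 84.6% and 30.8%, beside 35.3% and 26.1% of all genes tested. *MT-ND6*, a subunit of complex I and the one message from the other strand, gave 356, 363 and 320.2 CPM in the Control samples and 217, 193 and 183 CPM in the WNK463 samples and fell by 0.81 on the log2 scale (SE 0.06, adjusted p = 2.0e-09). Without strand its reads cannot be told apart from those of the opposite strand. *MT-ATP8*, a subunit of the ATP synthase, changed by -0.76 (SE 0.12, adjusted p = 1.3e-05). Both fell under both scalings. The sum over all 13 was 86.5% of Control with TMM factors, 96.0% with total counts and 99.1% in the deposited TPM. With TMM factors the first WNK463 sample, at 45430 CPM, lay within the range of the Control samples. It lay above every Control sample with total counts, at 47540 CPM, and in TPM, at 92920. The other WNK463 samples lay below every Control sample on each of these scales. The ribosomal RNAs of the mitochondrion were not analysed here.

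A pair of larger families served for comparison. Of 83 cytosolic ribosomal protein genes tested 55 fell and 5 rose, with a median of -0.20, and with total counts 28 fell and 16 rose, with a median of -0.05. *RPL39L* and *RPS26* were its lowest called genes at -1.59 and -0.78, and *RPS29* and *RPL39* its highest at 0.57 and 0.29. Of 78 nuclear genes for subunits of oxidative phosphorylation tested 51 fell and 5 rose, with a median of -0.28, and with total counts 34 fell and 11 rose, with a median of -0.12. Here *ATP5MC1* and *NDUFA11* were lowest at -0.96 and -0.83, and *NDUFB5* and *NDUFC1* highest, both at 0.50. With TMM factors 66.3% of the cytosolic and 65.4% of the oxidative phosphorylation genes fell, and 6.02% and 6.41% rose. Of all genes tested 35.3% fell and 35.5% rose. With total counts 33.7% and 43.6% fell and 19.3% and 14.1% rose, beside 26.1% and 46.1% of all genes. The mitochondrial ribosomal proteins had a median of -0.30 with TMM factors, and no difference between the families was tested.

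**Figure D4:**
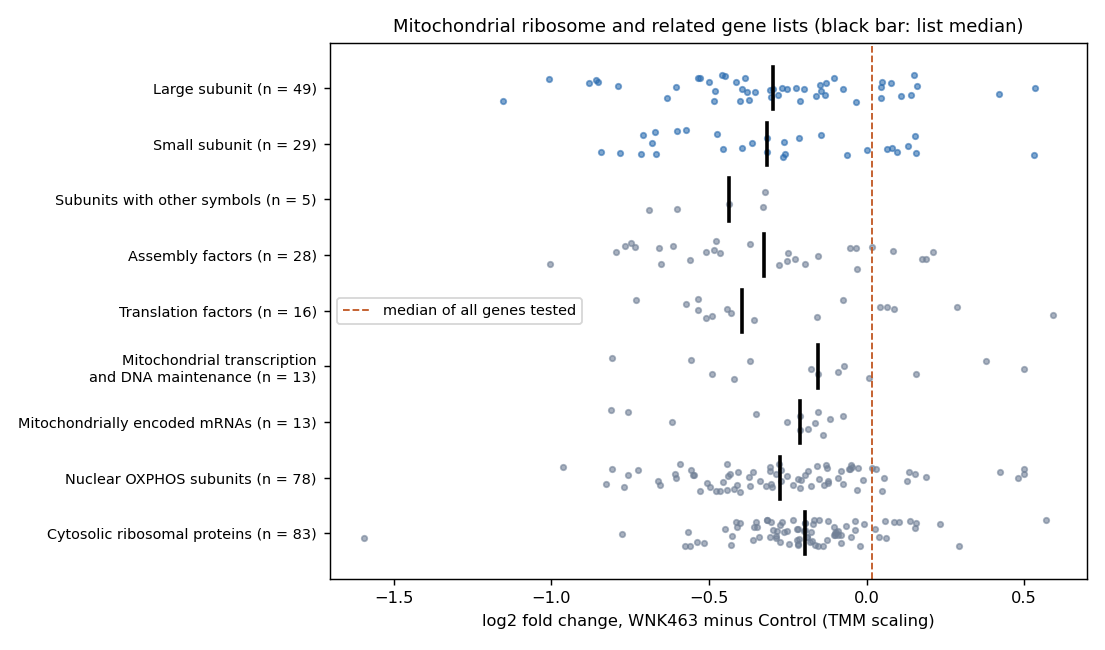
Log2 fold change (WNK463 minus Control, TMM factors) of the members and of related gene lists, 1 point per tested gene with vertical scatter for legibility and a black bar at each list's median. The dashed line marks the median of all genes tested (0.02). Every list's median lies below it, from -0.15 for mitochondrial transcription and DNA maintenance to -0.44 for subunits with other symbols; with total counts all values shift up by about 0.15.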

How the data were processed

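RNA-seq of 3 Control and 3 WNK463 samples of MV4-11 cells was read from a table that the authors deposited, grouped by the sample titles. The authors gave estimated counts as whole numbers, without normalization, and TPM, which sum to 1000000 per sample. The table also holds the authors' group means in TPM, log2 fold change and p-values, which were not used. The submitters' processing notes name fastp, Bowtie2, HISAT2, StringTie, RSEM, DESeq2, edgeR and GRCh38, with no role. The annotation and the strand setting were not given in the sources used here. A TPM above 0 stood beside a count of 0 for 62 values.

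Counts were tested in R 4.3.3 with edgeR 4.0.16 (filterByExpr, TMM factors, quasi-likelihood test, Benjamini-Hochberg adjustment over 11973 genes). Each standard error was taken as the size of the log2 fold change over the square root of F. The biological coefficient of variation was 5.21%. Replicates differed by more than sampling noise (chi-square per degree of freedom 2.64 to 7.13). On simulated counts for these genes and libraries the test recovered 77 of 98 genes changed by 0.5 and 93 of 99 changed by 1 on the log2 scale, with 12 false calls among 11868 genes. Only these few genes changed in the simulation, up and down alike, whereas 35.3% of the genes tested fell and 35.5% rose in the data. The recovery and false calls therefore need not hold for the data.

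The members, gene lists, motifs and tests were chosen with earlier results of these data known. Members described singly are the 5 lowest and 5 highest of each subunit, those past a 2-fold change, the highest and lowest by TPM, and the lists for the stalk, tunnel exit, decoding path and S18 relatives; from related lists, the proteins with other symbols and the 2 lowest and 2 highest called genes. Other members named (among them *MRPL3*, *MRPL20*, *MRPL40*, *MRPL53*, *MRPL58*, *MRPS27* and *MRPS30*) and the choice of promoters were made after values were seen. Alternatives were total-count scaling, DESeq2 1.42.0, other filters, limma 3.58.1 on log2(TPM + 1) and log2(TPM + 0.1) with and without a minimum of 1 TPM in 3 samples, a replicate block, each sample left out, another subunit assignment and stricter calls. Coordinates are from GENCODE 29, and promoter windows are RefSeq's.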

Additional observations from a re-analysis of the deposited data

How the results depend on the processing

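With the deposited TPM and limma, 19 large subunit members fell at a pseudocount of 1 or 0.1 and 16 without the TPM filter, 7 large subunit members rose, and in the small subunit 12 fell and 7 rose in each of these 3 fits. At a pseudocount of 1, 23.3% of all genes tested fell and 43.7% rose. The medians were then -0.105, -0.106 and -0.105 for the large and -0.075, -0.077 and -0.075 for the small subunit, and the summed TPM changed by -0.144 and -0.12 on the log2 scale. Total-count scaling gave medians of -0.147 and -0.165, 9 and 7 members that rose, and sums changed by -0.172 and -0.196. A test against a fold change of 1.2 left 20 large and 12 small subunit members that fell. By that test 2 large ones rose, and so did *MRPS36* of the small subunit (glmTreat adjusted p = 0.018). The share of all genes tested under that test is not given here. A 2-fold limit left 2 large and 0 small subunit members that fell, against 5.55% of all genes tested, and 0 that rose in either. DESeq2 called 29 large and 19 small subunit members lower, against 33.8% of all genes tested. It called 3 large and 1 small higher, against 33.3%. The fit without a filter on low counts called 2 large subunit members higher, and a minimum of 10 counts in every sample gave 2 small subunit members that rose. The shares of all genes in these 2 fits are not given here. With subunits assigned by structure 0 small subunit members rose.

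Leaving out each sample in turn gave 28 to 33 large and 16 to 19 small subunit members that fell, 2 to 5 and 1 to 3 that rose, medians from -0.319 to -0.258 and from -0.363 to -0.251, and sums from -0.336 to -0.307 and from -0.36 to -0.327. *MRPL2*, *MRPL18*, *MRPL39*, *MRPL46*, *MRPL54*, *MRPS10*, *MRPS26* and *MRPS31* lost their lower call in at least 1 of these fits. The labels do not say whether the replicate numbers pair the samples. Deviations from the group mean in samples of the same number had correlations of 0.019, -0.007 and -0.048, which cannot settle it. A replicate block gave 32 and 19 members that fell and 5 and 1 that rose, with medians of -0.297 and -0.318. The shares of all genes tested are not given here for the block or for the fits that left out a sample.

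Of 1092 single-member values under an alternative, 923 kept their direction and their side of the threshold, 110 no longer passed, 46 newly passed and 13 changed sign where one of the pair of fits had passed. Those 13 were *MRPL18* at 0.03, *MRPL30* at 0.039, *MRPS10* at 0.047 and *MRPS28* at 0.042 in all 3 TPM fits, and *MRPS10* at 0.006 with total counts, none of which passed. The cause was not tested.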

Other observations

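Genes that copy and transcribe mitochondrial DNA were called in both directions. Of 13 such genes 6 fell and 3 rose with TMM factors (median -0.15), and 5 fell and 4 rose with total counts. Of all genes tested 35.3% fell and 35.5% rose with TMM factors, and 26.1% fell and 46.1% rose with total counts, beside 46.2% and 23.1%, and 38.5% and 30.8%, of these 13. *TWNK*, the mitochondrial DNA helicase, changed by -0.81 (SE 0.06, adjusted p = 2.2e-09) and *SSBP1*, the single-strand DNA binding protein, by -0.56 (SE 0.06, adjusted p = 2.0e-07). *POLG2*, the accessory subunit of the mitochondrial DNA polymerase, changed by 0.50 (SE 0.11, adjusted p = 5.8e-04) and *PRORP*, the nuclease of mitochondrial tRNA processing, by 0.38 (SE 0.07, adjusted p = 1.0e-04). *TWNK* overlaps *MRPL43*, which itself changed by -0.48 (SE 0.07, adjusted p = 1.0e-05), and their reads cannot be told apart where the genes overlap.

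Of 9 tested regulators of mitochondrial genes 4 fell and 1 rose with TMM factors, 44.4% and 11.1% of them beside the same 35.3% and 35.5% of all genes tested. With total counts 3 fell and 3 rose, beside 26.1% and 46.1%, and the median was 0.055. *PPRC1*, a coactivator of the PGC-1 family that works with *NRF1*, gave 128, 132 and 126 CPM in the Control samples and 79.4, 73.8 and 73.3 CPM in the WNK463 samples and fell by 0.77 on the log2 scale (SE 0.05, adjusted p = 6.1e-10), with no overlap between the groups. *GABPB1*, the subunit that pairs with the ETS factor *GABPA*, changed by -0.49 (SE 0.07, adjusted p = 1.2e-05), and *GABPA* itself by -0.10, which did not pass. *MYC* changed by -0.27 (SE 0.05, adjusted p = 8.4e-05) and *TFEB* by 0.33 (SE 0.10, adjusted p = 0.009). *NRF1* and *YY1* did not pass, at 0.04 and 0.07, and *PPARGC1A* was under the filter on low counts. With total counts *YY1* and *ESRRA*, a nuclear receptor that works with PGC-1 coactivators, were also called higher, at 0.23 (edgeR adjusted p = 0.0011) and 0.265 (adjusted p = 0.0095).

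For some members the deposited TPM and the counts told different changes. The log2 change in TPM exceeded that in CPM of total counts by 0.26 for *MRPS28* and 0.17 for *MRPL47*, and was 0.26 lower for *MRPL42*.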
